A study of Mus musculus with 4 samples.

Results

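The Serpin family comprised 63 genes here, chosen as every protein-coding gene whose symbol starts with Serpin among the 21887 protein-coding genes of the RefSeq annotation of GRCm38.p6, the assembly that mm10 denotes. H3K27me3, the trimethyl mark that Polycomb repressive complexes place on lysine 27 of histone H3, was mapped by CUT&Tag. An antibody brings a transposase to the mark there, and the DNA nearby is cut and tagged. The 4 libraries came from spleen germinal center B cells of C57BL/6 mice: 2 KO mice with a B-cell knockout of Kdm6b, an enzyme that removes this mark, and 2 wild-type (WT) mice. Each library stands for a separate mouse, per the series description, which also calls the cells pre-plasma. All 4 mice received the same treatment, a first injection of sheep red blood cells, a second after 5 days and death at day 12. The Cre driver, the deleted part of Kdm6b, the sort markers, and the age and sex of the mice are not stated in the labels.

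Serpins share a fold with an exposed loop that serves as bait for a protease. Cleavage of the loop traps the protease in a covalent complex, so that most members are suicide inhibitors, of clotting, complement, fibrinolytic, neutrophil or granule proteases, while a few act as hormone carriers or chaperones. Rodent genomes hold expanded arrays of the alpha-1-antitrypsin and antichymotrypsin genes and of the intracellular clade B genes, and Serpina9, also called centerin, is a germinal center B cell gene of the antitrypsin array.

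Runs of at least 5 members with less than 500 kb between neighbours defined 3 clusters. The cluster on chromosome 1 held 12 Serpinb genes from Serpinb5 to Serpinb8 (chr1:106861175-107608978, mm10), that on chromosome 12 held 23 Serpina genes from Serpina10 to Serpina3n (chr12:103616675-104414334), and that on chromosome 13 held 16 Serpinb genes from Serpinb1a to Serpinb6a (chr13:32842092-34002794). The other 12 members lay apart from these arrays and are called dispersed. For each library the covered share was the percentage of bases inside the peaks of that library, taken over the gene body and over a window of 2000 bp on either side of a gene end. Of the 2 ends, the window with the higher mean over the 4 libraries was used, and an end counted as marked where peaks took up at least 25% of its 4000 bp window.

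The peak lists differed in breadth in a way that crossed the genotypes. Peaks covered 144 Mb and 236 Mb in KO replicates 1 and 2. In WT they covered 213 Mb (replicate 1) and 101 Mb (replicate 2). The values of WT replicate 2 were often the lowest, and those of KO replicate 2 and WT replicate 1 the highest, in the family as in all genes. Values below are given in the order of replicates 1 and 2 within a genotype. Read depth is unknown, and the lists hold no counts. Germinal center B cell marker genes carried little of the mark, with 1 and 3 of 12 gene ends marked in KO and 0 and 0 in WT. The ends of Bcl6, S1pr2, Mef2b and Gcsam had no coverage. In the other marker lists, 5 of 7 T cell, 4 of 7 myeloid and 2 of 5 erythroid genes were marked in all 4 libraries. So were 2 of 6 plasma cell genes (Prdm1 and Sdc1) and 1 of 4 NK cell genes. Over all genes the shares were 33.5% and 46.3% in KO, 40.8% and 26.3% in WT, and 24.1% in all 4. These marker counts describe where a repressive mark lay and do not measure purity.

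Most Serpin genes carried no H3K27me3 peak in any library. Neither the body nor either end window of 37 of the 63 members (58.7%) touched a peak in any of the 4 mice, against 33.1% of all protein-coding genes. The share was 34 of 51 in the clusters (66.7%) and 3 of 12 among dispersed members (25%). By cluster, 8 of 12 members were bare on chromosome 1, 18 of 23 on chromosome 12 and 8 of 16 on chromosome 13. At the other extreme, 11 members had some body coverage in every library (among them Serpine2, Serping1, Serpini1, Serpinh1, Serpina3f and Serpinb6a), or 17.5%, against 34.4% of all genes.

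Marked gene ends were few. Across all genes 33.5% and 46.3% of ends were marked in KO replicates 1 and 2. In the WT lists 40.8% (replicate 1) and 26.3% (replicate 2) were. Among the 63 members the corresponding counts were 8 (12.7%), 13 (20.6%), 12 (19.0%) and 5 (7.94%). Only 4 member ends were marked in all 4 libraries (6.35%), those of Serpine2, Serping1, Serpinh1 and Serpinb9b, where the share of all genes was 24.1%. Without WT replicate 2, the narrowest list, 7 were marked in the other 3, the added ends being those of Serpini1, Serpina3f and Serpinb1a. The ends of 47 members (74.6%) were marked in no library, as were 49.1% of all ends.

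Dispersed members stood close to the genome as a whole and clustered members below it. Mean gene-body coverage of the 12 dispersed members was 10.4% and 18.3% in KO mice and 20.1% and 10.9% in WT mice. Over the 51 clustered members it was 3.22% and 5.38% in KO and 5.69% and 1.29% in WT, and over all protein-coding genes 12.8% and 19.4% in KO and 17.1% and 9.65% in WT. Clustered members were thus lower than dispersed ones in each library, by 11.1 points on average (SD 3.26, n = 4 libraries). The difference was not tested, since neighbours in an array can lie under a shared peak and are not replicates.

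**Figure D1:**
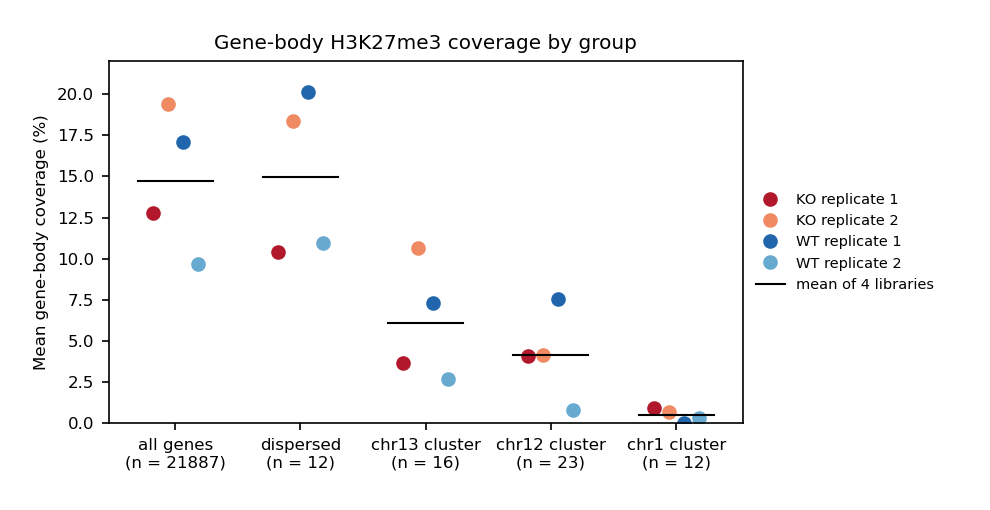
Mean percentage of the gene body covered by H3K27me3 peaks (vertical axis) in each of the 4 libraries (points) with their mean (line), for all protein-coding genes, dispersed Serpin genes and the Serpin genes of the clusters on chromosomes 1, 12 and 13. Dispersed members (body means 10.4% to 20.1%) lie near all genes (9.65% to 19.4%), and the chromosome 1 members lie lowest (0% to 0.94%).

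Among the dispersed members, Serpine2, Serpinh1 and Serping1 had ends marked in all 4 libraries. Serpine2 (chr1:79794317-79858665, gene ID 20720) encodes protease nexin-1, an inhibitor of thrombin and of plasminogen activators. Coverage of its 5′ window was 92.95% and 100% in KO mice and 100% and 96.9% in WT mice. Coverage was thus near complete in every mouse, and the means of 96.5% ± 4.99 in KO and 98.4% ± 2.21 in WT (SD, n = 2 each) overlapped. Gene-body coverage was 9.42% and 11.5% in KO mice and 16.1% and 6.23% in WT mice, so the mark sat mostly at the start of this gene of 64349 bp. Serpinh1 (chr7:99345375-99353239, gene ID 12406) encodes HSP47, a collagen chaperone with no protease-inhibiting role. Coverage of its 5′ window was 100% and 100% in KO mice and 100% and 68.3% in WT mice, with WT replicate 2 alone below full coverage. Body coverage was 46.2% and 79.5% in KO mice and 63.9% and 31.9% in WT mice. The best peak on Serpine2 ranked at percentiles 96.96 and 97.7 of all peaks by the authors' maximum signal in the KO lists and 96.2 and 98.9 in the WT lists, and that on Serpinh1 at 99.7 and 96.0 in KO and 95.5 and 93.1 in WT.

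The promoters of these genes, from 250 bases before to 50 bases after the RefSeq start on GRCm38.p6, are printed because peaks covered all 300 bases of both in all 4 libraries. Each is given 5′ to 3′ on the gene's own strand, with CG dinucleotides in capitals. Serpine2 lies on the minus strand (chr1:79858616-79858915), as does Serpinh1 (chr7:99353190-99353489).
Serpine2: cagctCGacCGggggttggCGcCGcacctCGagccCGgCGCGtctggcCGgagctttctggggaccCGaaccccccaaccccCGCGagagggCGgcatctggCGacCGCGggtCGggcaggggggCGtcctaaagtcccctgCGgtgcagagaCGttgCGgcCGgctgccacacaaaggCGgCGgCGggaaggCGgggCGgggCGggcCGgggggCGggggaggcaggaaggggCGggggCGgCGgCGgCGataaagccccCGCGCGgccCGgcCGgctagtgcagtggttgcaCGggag
Serpinh1: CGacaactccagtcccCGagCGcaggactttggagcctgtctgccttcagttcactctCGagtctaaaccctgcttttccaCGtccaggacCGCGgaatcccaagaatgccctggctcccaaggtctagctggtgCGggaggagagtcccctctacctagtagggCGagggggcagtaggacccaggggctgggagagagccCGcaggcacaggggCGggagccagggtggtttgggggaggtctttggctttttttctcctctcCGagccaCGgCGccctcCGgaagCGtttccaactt
The Serpine2 promoter held 41 CG, a number that 4.22% of the 17492 promoters in the RefSeq table reached, and that of Serpinh1 held 16, which 45.2% reached.

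Serping1 (chr2:84765360-84775444, gene ID 12258) encodes the C1 inhibitor, which restrains the first complement complex and plasma kallikrein. Its marked window, at the lower-coordinate end and of unknown strand here, was covered at 66.2% and 93.1% in KO mice and 78.9% and 46.7% in WT mice. All 4 mice were above the marking threshold, and the groups overlapped. Body coverage was 36.4% and 58.3% in KO mice and 91.6% and 50.8% in WT mice, highest in WT replicate 1.

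Serpini1, which encodes neuroserpin, an inhibitor of tissue plasminogen activator made by neurons, had a 5′ window covered at 27.1% and 42.2% in KO mice and 29.5% and 0% in WT mice. It was marked in the 3 broader lists and at 0 in the narrowest. The best peak on the gene ranked at percentiles 92.4 and 96.1 by signal in KO and 96.2 and 70.0 in WT. In WT replicate 2 that peak lay in the body, outside the 5′ window. Peaks took at most 1.90% of the gene body, in WT replicate 2. Weaker and less regular coverage was found on Serpine3, with an end window covered at 0% and 34.7% in KO mice and 22.6% and 0% in WT mice. The same held for Serpinf1, which encodes the anti-angiogenic factor PEDF, covered there by 0% and 21.8% in KO mice and 18.6% and 0% in WT mice. Coverage at the Serpinf1 end was limited to KO replicate 2 and WT replicate 1, the broadest lists, and so was that of Serpine3, which passed the marking threshold in KO replicate 2 alone. Serpinf2, the gene of alpha-2-antiplasmin, showed an end window covered at 0% and 0% in KO mice and 14.2% and 0% in WT mice. Its body was covered at 0% and 0% in KO mice and 7.31% and 5.55% in WT mice, both KO values lying below both WT values. Serpinc1, the gene of antithrombin, had a peak in KO replicate 2 only, over 4.14% of its body and outside both end windows. Serpini2, Serpind1 (heparin cofactor II) and Serpina7 (thyroxine-binding globulin) were bare in all 4 libraries. Liver-made plasma serpins were thus found among both covered and bare members.

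**Figure D2:**
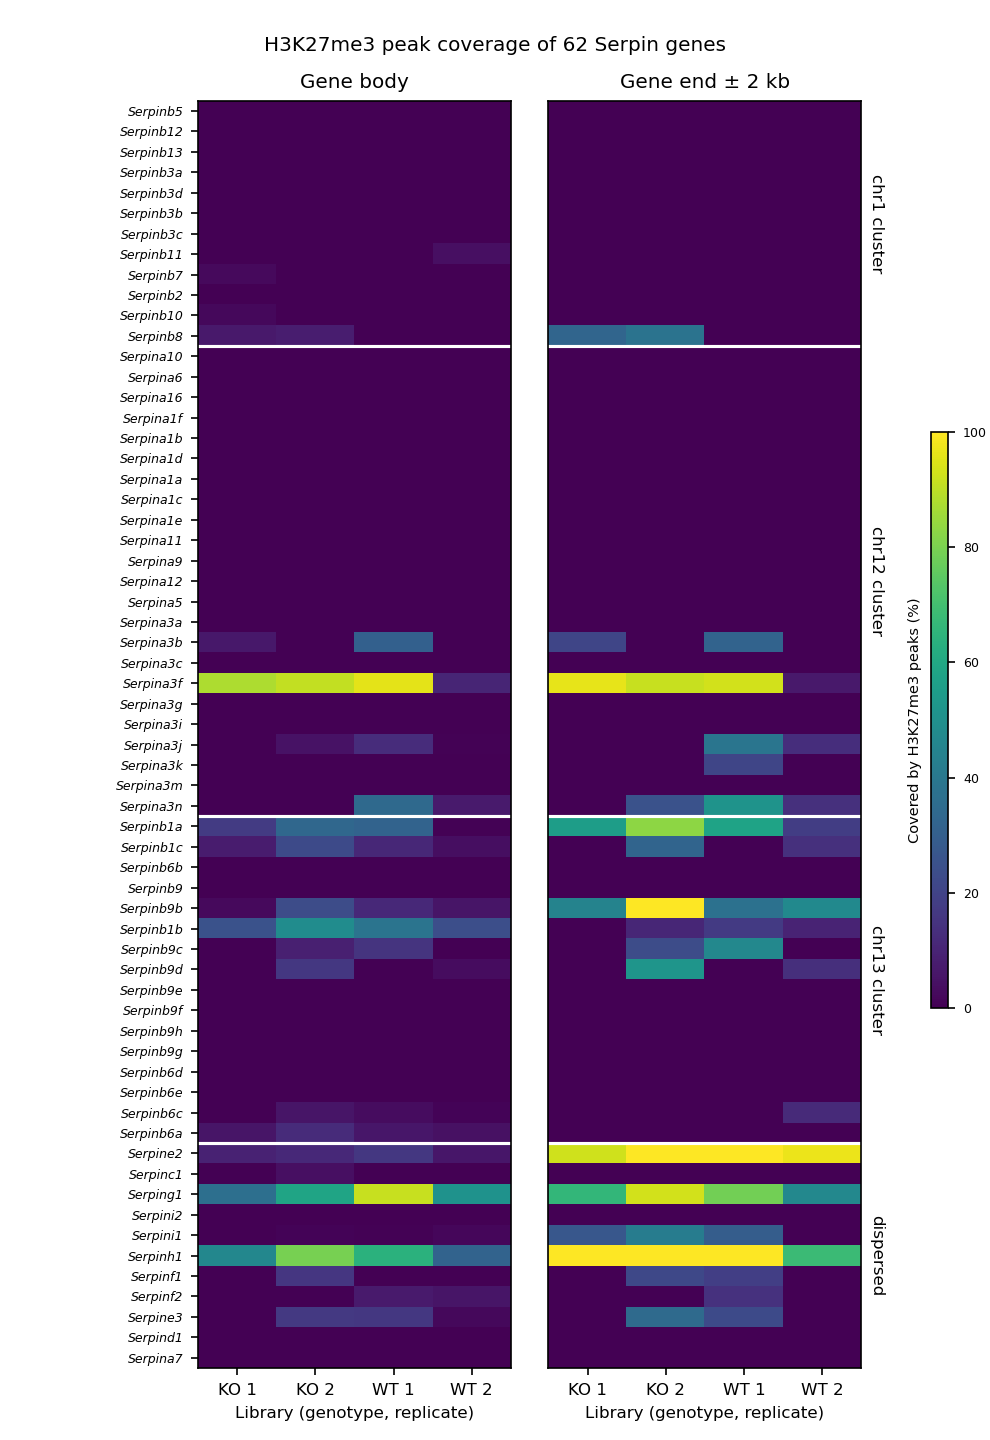
Percentage of the gene body (left) and of the gene-end window (right) covered by peaks, as colour from 0% to 100%, for 62 of the 63 members in rows by group and genome order, with 1 column per library. Serpine2, Serping1, Serpinh1 and Serpinb9b are at or above 25% of the end window in all 4 libraries, and Serpinb8 only in the KO libraries (32.5% and 37.9%).

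The chromosome 12 cluster holds the antitrypsin genes, the corticosteroid carrier Serpina6, the protein C inhibitor Serpina5, vaspin (Serpina12), Serpina9 and the expanded Serpina3 genes related to antichymotrypsin. Peaks covered 2.20% and 2.77% of its 797.66 kb in KO mice and 6.44% and 1.01% in WT mice. All peaks lay toward the Serpina3 end: no peak of any library fell between chr12:103616675 and 104056432, the first 439.758 kb of the locus, which holds 12 members from Serpina10 to Serpina12. The antitrypsin, antichymotrypsin and clade B arrays hold near-identical copies, and the treatment of multiply mapping reads is not stated in the labels, so values of single copies, zeros included, are uncertain.

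Serpina9 (chr12:103996615-104013652, gene ID 71907) lay within that bare stretch. Its body and both end windows were covered at 0% in each KO and each WT library, and this was also so with peaks trimmed to an equal covered length per library and with the 50% of peaks of highest signal. The nearest peak on the lower-coordinate side was 447634 bp and 447152 bp away in KO mice and 431986 bp and 426990 bp in WT mice. On the other side it was 125146 bp and 175190 bp away in KO and 42780 bp and 180543 bp in WT. The stretch around Serpina9 without a peak in any library ran for 486.808 kb (chr12:103569625-104056432). Since the gene had no coverage it did not enter the test between genotypes. Serpina10, which encodes the inhibitor that acts with protein Z, Serpina6 and Serpina16 were at 0 throughout as well.

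Serpina3f (chr12:104214544-104221129, gene ID 238393) was the most covered of the 51 clustered members. Body coverage was 87.6% and 90.8% in KO mice and 95.8% and 10.5% in WT mice. Coverage of its 5′ window was 96.2% and 91.8% in KO mice and 93.05% and 6.9% in WT mice. Coverage was near full in both KO mice and WT replicate 1 and slight in WT replicate 2. The difference of 44.0 points between the means (KO 93.99% ± 3.13, WT 49.98% ± 60.9, SD, n = 2 each) was 0.938 points without WT replicate 2. With equal covered length the Serpina3f body was covered at 78.2% and 20.9% in KO mice and 6.07% and 10.5% in WT mice. Its 5′ window was then at 96.2% and 84.4% in KO and 60% and 6.9% in WT. With the 50% of peaks of highest signal the body was at 78.2% and 90.8% in KO and 95.8% and 10.5% in WT. The longest merged covered region of the cluster, 16373 bp (chr12:104207693-104224065), lay over this gene. Serpina3n, which encodes an inhibitor of cathepsin G and granzyme B, had its 3′ window covered at 0% and 25.3% in KO mice and 51.4% and 13.9% in WT mice. Its body was at 0% and 0% in KO mice and 33.997% and 7.26% in WT mice. Serpina3b had its 3′ window covered at 21.1% and 0% in KO mice and 31.9% and 0% in WT mice. WT replicate 1 was the highest library at both. Serpina3j had a 5′ window covered at 0% and 0% in KO mice and 38.9% and 12.97% in WT mice, so that both KO values lay below both WT values. Serpina3g, an intracellular cathepsin inhibitor of lymphocytes, lies next to Serpina3f and was at 0 in every library.

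Some of the Serpina3 promoters are related in sequence, which makes the contrast within the array visible. Those of Serpina3a and Serpina3j gave local alignments to Serpina3f of only 14 and 8 bases. Serpina3f and Serpina3g are shown because the promoters of these neighbouring copies differed fully in coverage in both KO mice and WT replicate 1. Both lie on the plus strand, at chr12:104214294-104214593 and chr12:104235897-104236196, with CG in capitals.
Serpina3f: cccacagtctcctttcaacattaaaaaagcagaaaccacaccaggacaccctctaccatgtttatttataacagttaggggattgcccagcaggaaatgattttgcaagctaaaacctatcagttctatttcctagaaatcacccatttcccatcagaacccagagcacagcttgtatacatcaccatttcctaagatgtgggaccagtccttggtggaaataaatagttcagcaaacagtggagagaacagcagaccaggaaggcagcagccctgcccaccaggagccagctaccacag
Serpina3g: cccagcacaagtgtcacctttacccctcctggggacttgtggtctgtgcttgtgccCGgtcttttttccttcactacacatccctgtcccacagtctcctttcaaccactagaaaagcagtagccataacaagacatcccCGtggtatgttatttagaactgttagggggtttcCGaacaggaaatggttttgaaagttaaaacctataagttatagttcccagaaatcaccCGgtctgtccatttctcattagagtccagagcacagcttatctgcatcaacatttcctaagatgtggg
The best local alignment of these promoters spanned 202 bases, of which 83.7% were identical. Peaks covered 100% of the Serpina3f promoter in both KO mice and WT replicate 1. They left it free in WT replicate 2, and covered 0% of the Serpina3g promoter in all 4. The Serpina3i promoter was more alike still, with 84.3% of 267 aligned bases identical to Serpina3f and 0 CG in both, and its end windows were at 0 in every library. Likeness of the promoter to Serpina3f thus did not go with coverage in these copies, a description of 3 genes chosen after their values were seen.

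The chromosome 13 cluster, of intracellular clade B serpins, held marked ends in every library, 2 and 4 in KO and 3 and 1 in WT. Peaks covered 2.42% and 6.28% of its 1160.7 kb in KO mice and 4.03% and 1.81% in WT mice. Within the gene bodies the share was 4.64% and 12.5% in KO and 7.49% and 3.34% in WT, and between them 1.51% and 3.71% in KO and 2.61% and 1.18% in WT. Peaks here were thus denser inside the genes than between them in each library. Coverage sat toward the ends of the array, since 691.37 kb in its middle (chr13:33208081-33899450), with 6 members from Serpinb9e to Serpinb6e, held no peak in any library.

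By gene body, the Serpinb1 genes were the most covered of this cluster. Serpinb1a (chr13:32842092-32853206, gene ID 66222), which encodes an inhibitor of neutrophil elastase and cathepsin G, had an end window covered at 55.5% and 83.1% in KO mice and 58.1% and 18.1% in WT mice. Only WT replicate 2 was below the marking threshold. Serpinb1b carried the mark along the gene, with the body covered at 25.3% and 48.5% in KO mice and 38.4% and 23.97% in WT mice but the end window by no more than 17.1%. Serpinb1c was lower, with the body covered at 7.69% and 22.5% in KO mice and 11.2% and 3.79% in WT mice. In each of these genes KO replicate 2 was the highest for the body, and WT replicate 2 the lowest.

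Serpinb9b (chr13:33027414-33040588, gene ID 20706) was the only clustered member marked in all 4 libraries with the full lists. Coverage of its 5′ window was 44.9% and 100% in KO mice and 37.3% and 47.5% in WT mice. The complete coverage in KO replicate 2 set it apart from the other 3 libraries, which lay between 37.3% and 47.5%. Its promoter is shown because its window was marked in every mouse at few CG. Peaks covered 100% of the promoter itself in 3 libraries and 0% in WT replicate 1. It lies on the plus strand (chr13:33027164-33027463) and held 2 CG, a number that 87.6% of promoters reached.
Serpinb9b: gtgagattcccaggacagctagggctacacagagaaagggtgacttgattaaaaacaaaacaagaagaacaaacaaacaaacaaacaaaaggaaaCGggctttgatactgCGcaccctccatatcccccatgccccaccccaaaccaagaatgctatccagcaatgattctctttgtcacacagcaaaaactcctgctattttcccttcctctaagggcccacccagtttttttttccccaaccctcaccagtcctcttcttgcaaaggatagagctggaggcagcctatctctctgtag
Serpinb9c and Serpinb9d were covered irregularly. The end window of Serpinb9c was covered at 0% and 23.3% in KO mice and 46.5% and 0% in WT mice. That of Serpinb9d was covered at 0% and 52.1% in KO mice and 0% and 13.7% in WT mice. Serpinb9 itself, the granzyme B inhibitor that protects lymphocytes from their own granules, was at 0 in every library, as were Serpinb9e and Serpinb6b. Serpinb6a, an inhibitor of cathepsin G, had a body covered at 5.74% and 12.3% in KO mice and 6.202% and 4.496% in WT mice with both end windows at 0. Its best peak ranked at percentiles 86.7 and 91.4 by signal in KO and 92.9 and 93.5 in WT, and the longest merged region of the cluster (7102 bp, chr13:33931039-33938140) lay inside the gene.

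The chromosome 1 cluster, with maspin (Serpinb5), the squamous cell antigen genes and PAI-2 (Serpinb2), was nearly free of the mark. Peaks covered 0.626% and 0.706% of its 747.804 kb in KO mice and 0.213% and 0.102% in WT mice, with 5 peaks in each KO list and 1 in each WT list. No base of the locus was covered in all 4 libraries. The first 493.761 kb (chr1:106861175-107354935), holding 7 members from Serpinb5 to Serpinb3c, were bare in all. Serpinb5, Serpinb12 and Serpinb13 were at 0. Serpinb11 was touched in WT replicate 2 only (4.20% of the body) and Serpinb7 in KO replicate 1 only (2.43%).

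Serpinb8 (chr1:107589926-107608978, gene ID 20725) closes this cluster and was its only member with a marked end. Coverage of its 5′ window was 32.5% and 37.9% in KO mice and 0% and 0% in WT mice, from 1 peak in each KO list (chr1:107590457-107591756 in replicate 1 and chr1:107589948-107591464 in replicate 2). It was the only one of the 63 members marked in both KO libraries and neither WT library, a pattern of 1.2% of all genes, and no member showed the opposite pattern, which 0.187% of all genes did. The peaks were weak by the authors' maximum signal, at percentile 42.5 of the KO replicate 1 list and 8.0 of the KO replicate 2 list. No peak was left on the gene when lists were trimmed to an equal covered length or to the 50% of peaks of highest signal. The peaks began just inside the gene, so that the promoter (chr1:107589756-107590055, plus strand) was covered at 0% in KO replicate 1 and 36% in KO replicate 2. It held 5 CG, in capitals.
Serpinb8: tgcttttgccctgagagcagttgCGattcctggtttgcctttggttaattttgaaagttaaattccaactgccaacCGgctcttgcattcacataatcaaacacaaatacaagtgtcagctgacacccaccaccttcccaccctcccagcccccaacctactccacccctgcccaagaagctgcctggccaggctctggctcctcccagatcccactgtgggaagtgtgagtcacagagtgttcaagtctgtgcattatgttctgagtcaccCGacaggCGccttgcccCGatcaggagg

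**Figure D3:**
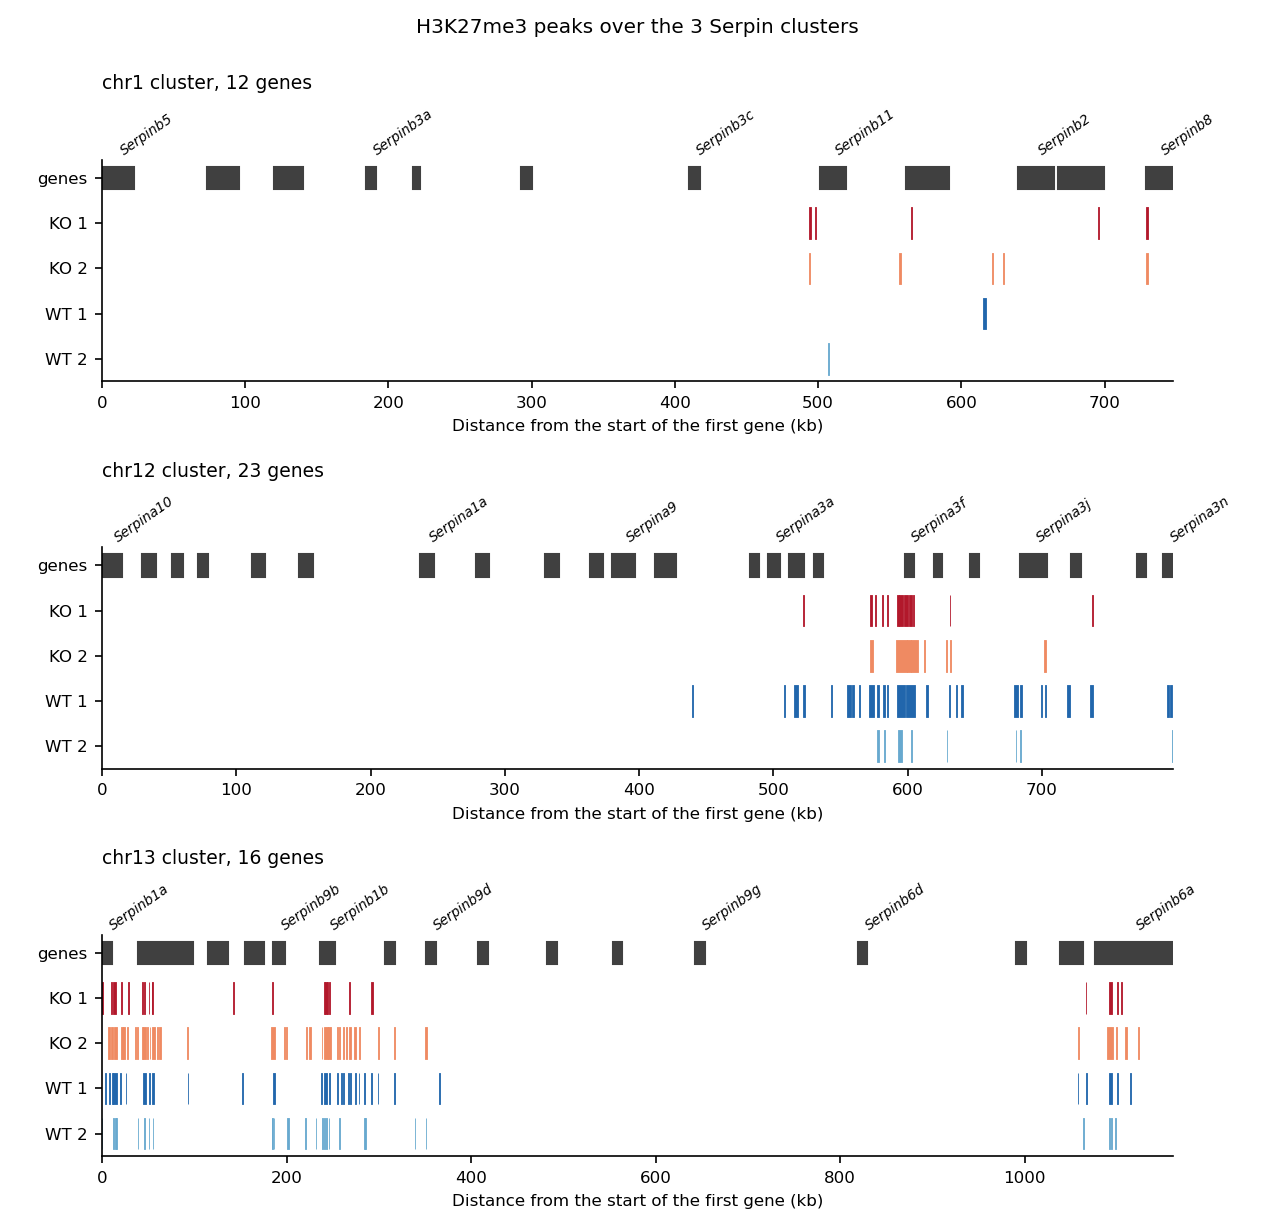
Maps of the 3 clusters, with distance from the start of the locus in kb on the horizontal axis, member genes as boxes and the peaks of each library as marks in 1 row per library. Peaks gather at the Serpina3 end of the chromosome 12 cluster and at the ends of the chromosome 13 cluster, and long stretches (493.761 kb, 439.758 kb and 691.37 kb on chromosomes 1, 12 and 13) hold none in any library.

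The comparison of genotypes asked whether H3K27me3 over these genes differs in B cells without Kdm6b. A peak list of this mark does not show whether Kdm6b was deleted, so the genotypes are as labelled. No Serpin gene passed the test between KO and WT. In limma over the gene ends with coverage, 0 of 13844 genes had an adjusted p under 0.05 (0.0%), with a smallest adjusted p of 0.895, and at an unadjusted p under 0.05 the count was 490 higher and 66 lower in KO. Over gene bodies 2 of 13805 genes passed (0.0145%), neither of them a Serpin gene, and 216 higher and 47 lower were counted at an unadjusted p under 0.05. Every Serpin body with coverage had an adjusted p of 1. Leaving out any library left 0 genes over bodies, so neither call held without any 1 of them.

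Among the members, the largest separated end difference was that of Serpinb8, 35.2 points (SE 3.88, limma unadjusted p = 0.00354, adjusted p = 0.895), with both KO mice above both WT mice. Serpina3j was 25.9 points lower in KO by its means (KO 0% ± 0, WT 25.9% ± 18.3, SD, n = 2 each, limma adjusted p = 0.895). That difference was -12.975 without WT replicate 1, -38.9 without WT replicate 2 and -6.49 with equal covered length. At ends marked in all 4 full lists the differences were -1.96 points at Serpine2 (SE 4.51, limma adjusted p = 0.973), 15.9 at Serpinh1 (SE 13.7) and 30.0 at Serpinb9b (SE 23.8). The limma adjusted p of the last pair was 0.895. At Serping1 the difference was 16.9 points (SE 17.9). Leaving out 1 library at a time gave 0 (without WT replicate 2) to 31.7 (without WT replicate 1) at Serpinh1, 2.5 (without KO replicate 2) to 57.6 (without KO replicate 1) at Serpinb9b, and 0.8 to 33 at Serping1. With equal covered length the Serpinb9b difference was -23.7.

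Counted over the 21 member ends with coverage, 12 had a higher mean in KO and 9 a lower one, with a median difference of 1.58 points. Over all 13844 ends with coverage the counts were 9760 and 3463, with a median of 6.61 points. Each KO mouse was above each WT mouse at 1 of the 21 (Serpinb8), where the share of all covered ends was 14.4%, and the reverse order was found at 1 (Serpina3j), where it was 2.26%. Over the 25 member bodies with coverage, each KO mouse was above each WT mouse at 1 (Serpinb8, against 12.3% of all covered bodies). The reverse held at 2, Serpinf2 (difference -6.43 points, SE 1.15, limma unadjusted p = 0.0157, adjusted p = 1) and Serpina3n (-20.6 points, SE 11.7, limma adjusted p = 1), against 2.75% of all covered bodies. The WT replicate 2 peaks at Serpinf2 and Serpina3n ranked at percentiles 17.2 and 1.35 by signal. With equal covered length the body differences were -2.77 points at Serpinf2 and -3.63 at Serpina3n, with coverage in WT replicate 2 alone. Counts of 1 and 2 are too few to set the family apart from all genes.

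The cluster loci as wholes were compared by their covered shares. The means were 0.666% ± 0.0565 in KO and 0.157% ± 0.0783 in WT on chromosome 1 (SD, n = 2 each, two-sided exact permutation p = 0.333), with both KO mice above both WT mice. That p is the smallest that the 6 relabellings of 2 against 2 allow, so this design cannot reach 0.05. On chromosome 12 they were 2.48% ± 0.401 for KO and 3.72% ± 3.84 for WT (p = 1 by the same exact test). On chromosome 13 they were 4.35% ± 2.72 for KO and 2.92% ± 1.57 for WT (p = 0.667, exact test). With covered length made equal between libraries the chromosome 1 difference went from 0.508 to -0.00715 points, that of chromosome 12 turned from -1.24 to 0.110 and that of chromosome 13 from 1.43 to -0.189. With the 50% of peaks of highest signal the differences were 0.111, 0.165 and 1.09 points, so that chromosome 12 alone changed direction there.

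Serpin promoters held fewer CG dinucleotides than most. Of the 63 members 54 had a promoter in the RefSeq table, with a median of 3 CG in 300 bases, against 13 over all 17492 promoters. At least 10 CG were found in 6 of the 54 (11.1%) and in 57.2% of all promoters. The motif is CG, which reads the same on both strands. By group the medians were 0 on chromosome 1, 4 on chromosome 12, 3 on chromosome 13 and 5 among dispersed members. The 10 members whose 5′ window was marked in at least 1 library had a median of 5 CG, and the other 44 a median of 3. Over all genes, promoters with a 5′ window marked in all 4 libraries had a median of 17 CG. Those marked in 1 to 3 libraries had a median of 16 and those marked in none a median of 8. Within the family exceptions were found in both directions: Serpina3f with 0 and Serpinb9b with 2 CG were marked, whereas Serpinb6a with 25 and Serpina3a with 11 had 0% of the 5′ window covered in every library.

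**Figure D4:**
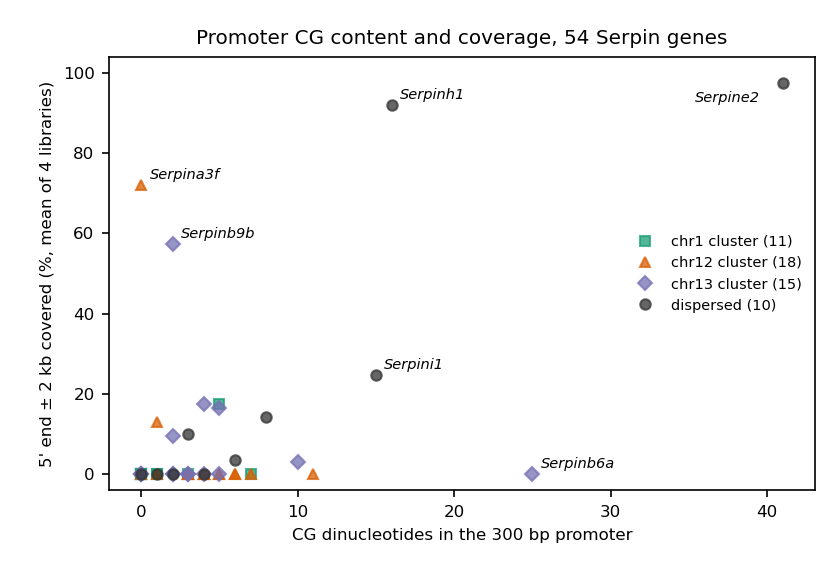
Number of CG dinucleotides in the 300-base promoter (horizontal axis) against the mean percentage of the 5′ window covered over the 4 libraries (vertical axis), 1 point per Serpin gene with a promoter in the RefSeq table (n = 54), with colour and shape for the group. Most members sit at few CG and 0% covered, whereas Serpine2 (41 CG), Serpinh1 (16 CG), Serpina3f (0 CG) and Serpinb9b (2 CG) lie higher on the vertical axis.

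Marked genes flanked the chromosome 12 cluster. Ppp4r4, whose body ends 2836 bp below Serpina10, was marked at its far end, at chr12:103532250. That end window was covered by 100% and 100% in KO and 94.8% and 94.3% in WT. The Ppp4r4 end nearer Serpina10 lay within the stretch without a peak in any library, which began at chr12:103569625. Gsc, a homeobox gene 56875 bp above Serpina3n, had an end window covered by 100% and 90.2% in KO and 94.1% and 91.1% in WT. The array between Ppp4r4 and Gsc thus lay between marked genes in every library. On chromosome 13, Tubb2b, a tubulin gene 124214 bp above the cluster, had an end window covered by 100% in all 4 libraries. Nearer on that side Tubb2a was marked in 2 libraries and Bphl in 1, and below the cluster Wrnip1 and Mylk4 were marked in 1 each and Gmds in 3. On chromosome 1, Bcl2, the survival gene 146885 bp below Serpinb5, was covered by 84.1% and 100% in KO and 92.7% and 12.8% in WT at its end window, and nearer to the cluster Kdsr (0% and 0% in KO, 37.9% and 0% in WT) and Vps4b (29.2% and 0% in KO, 16.4% and 0% in WT) were each marked in 1 library. The next 3 genes above Serpinb8, Cdh7, Cdh19 and Dsel, were at 0 and the first began 2373259 bp away.

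The protease targets and the partners of serpins were counted in the same way. Of 34 listed serpin target proteases 33 were found, and their ends were marked in 16 and 24 cases in KO and 25 and 11 in WT (over all genes 33.5% and 46.3% in KO, 40.8% and 26.3% in WT). Of the 33, 10 were marked in all 4 libraries (30.3%, against 24.1% of all genes), among them Plat and Plau, the tissue and urokinase plasminogen activators, which Serpine2 inhibits, F12 and Masp1. Of 12 listed cofactors and receptors 10 were marked in all 4 libraries (83.3%, against the same 24.1%), among them Thbd (thrombomodulin), Plaur (the urokinase receptor), Vtn (vitronectin) and Lrp1, which clears serpin complexes. No gene of either list passed limma between the genotypes (0 of 28 proteases and 0 of 12 partners with coverage). The lists and the family were not tested against each other.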

How the data were processed

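H3K27me3 CUT&Tag peak lists of 4 libraries (2 KO, 2 WT) were used. Per the submitters' processing notes, SEACR, deepTools, SAMtools 1.11, Bowtie2 2.4.2 and Trim Galore 0.6.6 were used, with the mm10 build. Their roles, their settings and the control for calling are not given in the labels or notes. The authors deposited 1 list per library, called without pooling, with 6 columns: position, total signal, maximum signal and the place of the maximum. The scale of the signal (coverage) is unknown, so it served only to rank peaks within a list.

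Genes came from RefSeq on GRCm38.p6. Covered shares were computed in Python 3.11.15 and compared with limma 3.58.1 (R 4.3.3, Benjamini-Hochberg, threshold 0.05) over all genes with coverage in any library, of which 26 Serpin genes had some at the body or an end. Cluster loci were compared with an exact permutation test over 6 relabellings. The limma code was run on simulated data with the same normal noise for every gene. That run checks the code and gives no measure of power on these values. Promoters were aligned locally with Biopython 1.88.

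Replicate numbers follow the order of the labels and pair no samples. The labels name no batch. Strand and promoters were known for 54 of 63 members. The members and lists were chosen with earlier results of these data known. Counts and means cover all 63 members, and 1 member is not reported on its own here. Named by rule were Serpina9, dispersed members, the 3 highest and 3 lowest bodies of each cluster, and ends separated between genotypes by at least 25 points. Other members, such as Serpinb9b, Serpinb9c, Serpinb9d, Serpinb6a, Serpina3a, Serpina3g and Serpina3i, were named after their values were seen. Alternatives changed the peaks used, window, gene end, filter, marking threshold, cluster gap, covariate and libraries.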

Additional observations from a re-analysis of the deposited data

How the results depend on the processing

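Serpina9 stayed at 0 with equal covered length, with the 50% of peaks of highest signal and without any library. In limma over ends, 0 genes passed in every run but that without a filter, which called 21 of all genes. Over bodies, 0 passed without each library in turn (0 to 0), 0 with a covariate for covered length and 8 without a filter. With equal covered length the locus differences were -0.00715 (chromosome 1), 0.110 (chromosome 12) and -0.189 (chromosome 13), and with the top 50% of peaks 0.111, 0.165 and 1.09. Leaving out each library gave 0.453 to 0.564, -3.95 to 1.47 (positive without WT replicate 1) and -0.501 to 3.35 (negative without KO replicate 2). Clustered minus dispersed body means were -7.46 points with equal length, -7.01 with the top 50% of peaks, -3.45 by medians and -23.7 over end windows (without each library -12.4 to -9.94). Ends marked in all 4 libraries numbered 2 with equal length, 2 with the top 50% of peaks and 2 with marking at 50% of the window (4 to 7 without each library). Those 2 were Serpine2 and Serpinh1 each time, and Serping1 and Serpinb9b dropped out. Some end differences changed sign. For Serpine2 the value was 1.06 with the top 50% of peaks and 9.50 with 5000 bp windows (-5.49 to 1.56 without each library), for Serping1 -17.2 with equal length and -4.46 over both ends. For Serpinb9b it was -23.7 with equal length and -16.9 with the top 50% of peaks. The cause was not tested. Serpinb8, Serpina3f and Serpina3j kept their sign wherever they had coverage, and Serpinh1 did except without WT replicate 2 and with 1000 bp windows, where it was 0. The Serpinb8 end had no coverage with equal length or with the top 50% of peaks. That of Serpina3j had none with the top 50% of peaks. With equal length it was covered in WT replicate 2 alone (12.975%), so the genotypes were no longer separated. The covariate could not be run for Serpina9, which has no coverage. No paired analysis was possible because the replicate numbers are only names. Read depth is unknown, so the weakest mark that could have been called in each library cannot be given.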
